A study of Mus musculus with 12 samples.

Results

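MHC class II genes were followed in macrophages that had entered tumour spheres and in macrophages of the same cultures that had stayed outside. The 10 genes were H2-Aa, H2-Ab1, H2-Eb1, H2-DMa, H2-DMb1, H2-DMb2, H2-Oa, H2-Ob, Cd74 and Ciita, out of 17097 genes with a probe set that carries a single gene symbol. They were chosen by symbol, and 19 probe sets matched. Each gene was read from its brightest probe set, by mean signal over 12 arrays, and all 10 passed the filter on dim signal that left 12488 genes for testing. Expression is given throughout as deposited RMA values on the log2 scale, so a log2 difference of 1 is a change of 2-fold in signal.

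The macrophages were bone marrow-derived cells of C57BL/6 mice, added to spheres that the mouse neuroblastoma line TT9423 had formed on agar. Every group therefore shared a culture with tumour cells, and no macrophages kept without spheres were analysed here. In-sphere cells were labelled CD11b+ and came from digested spheres through CD11b magnetic columns. For cells from outside the spheres the title names only the agar culture, and no source used here says if they were digested or column-selected, so preparation and position cannot be told apart. Each of the 4 groups (in sphere or outside, labelled 24 h or 48 h) held 3 arrays, each an independent experiment with macrophages pooled over wells. The protocol text on every sample describes a co-culture of 24 h.

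Class II molecules are cell-surface heterodimers of an alpha and a beta chain that show peptides from endocytosed protein to CD4+ T cells. The chains assemble on the invariant chain, encoded by Cd74, which fills the groove and leads the complex to endosomes, where proteases trim it. H2-DM, made of H2-DMa and an H2-DMb chain, then swaps the remaining fragment for peptide, and H2-O restrains H2-DM. Transcription of these genes depends on the coactivator CIITA, which does not bind DNA itself but joins RFX, CREB and NF-Y factors on the X and Y boxes of their promoters. In macrophages CIITA is classically induced by interferon gamma.

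The promoter windows are shown because these genes are known to be switched on through the same boxes. RefSeq windows of GRCm38.p6, from 250 bases before to 50 bases after the annotated start, are described for 7 of the 10 genes (8 windows, H2-DMa having 2 starts). No window was found for H2-Ab1 or Ciita, and the promoter of Cd74 is not reported here. The capitals mark an X box core, AACNNNTGA, followed on the same strand within 40 bases by the Y box GATTGG. In H2-Aa, which lacked that pair, the capitals mark the Y box and a cyclic AMP response element, TGACGTCA. The windows shown are chr17:34305617-34305916 for H2-Eb1 on the plus strand, chr17:34287774-34288073 for H2-Aa on the minus strand, and on the plus strand chr17:34152941-34153240 for H2-DMb1, chr17:34144999-34145298 for H2-DMb2, chr17:34238655-34238954 for H2-Ob and chr17:34122582-34122881 for the first start of H2-DMa, in which no motif was marked.
H2-Eb1: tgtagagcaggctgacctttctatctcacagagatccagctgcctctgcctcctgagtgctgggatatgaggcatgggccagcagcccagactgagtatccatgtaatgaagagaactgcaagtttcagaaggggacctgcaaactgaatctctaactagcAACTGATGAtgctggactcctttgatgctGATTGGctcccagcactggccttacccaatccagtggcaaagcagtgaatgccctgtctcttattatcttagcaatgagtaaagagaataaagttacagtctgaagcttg
H2-Aa: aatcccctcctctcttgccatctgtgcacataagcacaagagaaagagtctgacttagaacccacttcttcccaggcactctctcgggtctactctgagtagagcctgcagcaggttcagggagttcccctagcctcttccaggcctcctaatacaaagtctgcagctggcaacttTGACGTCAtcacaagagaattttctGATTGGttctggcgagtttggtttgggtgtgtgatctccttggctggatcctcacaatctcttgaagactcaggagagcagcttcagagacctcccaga
H2-DMb1: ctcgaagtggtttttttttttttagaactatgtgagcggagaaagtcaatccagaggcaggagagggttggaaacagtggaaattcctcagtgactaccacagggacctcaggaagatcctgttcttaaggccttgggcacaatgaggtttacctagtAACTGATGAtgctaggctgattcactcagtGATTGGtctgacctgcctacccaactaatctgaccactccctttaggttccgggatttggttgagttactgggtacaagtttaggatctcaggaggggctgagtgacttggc
H2-DMb2: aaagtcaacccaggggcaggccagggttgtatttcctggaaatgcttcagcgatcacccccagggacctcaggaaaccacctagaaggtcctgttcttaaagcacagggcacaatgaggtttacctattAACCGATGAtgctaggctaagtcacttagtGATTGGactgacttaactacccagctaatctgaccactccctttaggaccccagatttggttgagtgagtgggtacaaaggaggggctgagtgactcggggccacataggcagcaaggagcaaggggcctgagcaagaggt
H2-Ob: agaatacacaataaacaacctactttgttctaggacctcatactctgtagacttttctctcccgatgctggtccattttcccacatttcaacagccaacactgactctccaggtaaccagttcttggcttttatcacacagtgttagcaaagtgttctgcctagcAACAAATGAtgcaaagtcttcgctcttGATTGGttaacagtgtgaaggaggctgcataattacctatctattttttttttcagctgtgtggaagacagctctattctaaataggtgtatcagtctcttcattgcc
H2-DMa: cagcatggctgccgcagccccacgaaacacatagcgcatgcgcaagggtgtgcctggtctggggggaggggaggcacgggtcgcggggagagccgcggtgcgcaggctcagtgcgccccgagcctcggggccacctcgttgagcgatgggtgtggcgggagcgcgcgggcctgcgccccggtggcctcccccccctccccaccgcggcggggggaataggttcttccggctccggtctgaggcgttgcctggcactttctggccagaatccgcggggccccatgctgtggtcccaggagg

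The pair of X box core and Y box was found in H2-Eb1, H2-DMb1, H2-DMb2 and H2-Ob. The gap between the motifs was 20 bases in H2-Eb1, 21 bases in both H2-DMb1 and H2-DMb2, and 18 bases in H2-Ob. Over all 32851 promoter windows of that length, 54 held the pair (0.164%), while 11.9% held the X box core, 16.1% the Y box and 1.79% the cyclic AMP response element on either strand. H2-Oa had a Y box without the X box core, 44 bases before its start. The first H2-DMa window held none of these motifs, and the second held a Y box 199 bases before the start. The motifs were chosen with these promoters in view, so the match is a description of the letters and says nothing of binding.

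**Figure D1:**
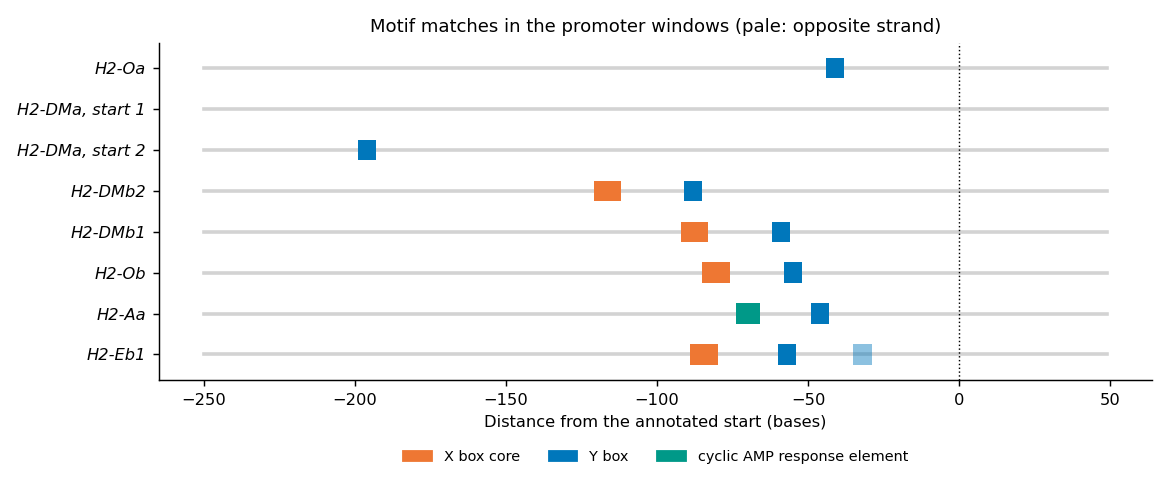
Matches to the X box core (orange), the Y box (blue) and the cyclic AMP response element (green) along the 8 promoter windows, with distance from the annotated start in bases on the x axis and one window per line. X box core and Y box lie 18 to 21 bases apart in H2-DMb2, H2-DMb1, H2-Ob and H2-Eb1, and the first H2-DMa window has no match.

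Array medians ran from 3.03 to 3.17. The third in-sphere array of 48 h was unlike the rest, with the lowest array weight (0.235). Its mean over tested genes was 5.50, against 5.77 and 5.75 in the others of its group. The first in-sphere array of 24 h had the next lowest weight (0.347, against 3.5 and 0.586 in its group). Its mean of 5.738 was close to the 5.755 and 5.746 of the others. Macrophage markers had a summed level of 14.42 to 14.66 (log2) in spheres and 14.23 to 14.56 outside at 24 h, and 14.51 to 14.66 and 14.38 to 14.60 at 48 h, so macrophage genes were bright in all 4 groups. Of 10 such markers tested, 1 was higher and 2 lower in spheres at 24 h, and 2 higher and 2 lower at 48 h. These counts were near the background, as 29.4% of all genes tested differed at 24 h and 37.5% at 48 h (limma adjusted p under 0.05). The engulfment receptor Mertk was lower at both times (-0.91 ± 0.15 and -1.25 ± 0.15, limma adjusted p = 8.87e-04 and 6.30e-05), and the lipopolysaccharide co-receptor Cd14 higher (0.54 ± 0.13 and 1.09 ± 0.13, adjusted p = 0.00715 and 5.11e-05). The adhesion receptor Adgre1 was lower at 24 h (-0.43 ± 0.13, adjusted p = 0.0221), a call that ended when in-sphere replicate 1 (0.082) or outside replicate 1 or 3 (0.079 and 0.063) was left out. At 48 h Cd68 was lower (-0.75 ± 0.13, adjusted p = 6.91e-04) and the Fc receptor Fcgr1 higher (1.19 ± 0.40, adjusted p = 0.0338), the latter without a call when in-sphere replicate 2 or 3 (0.0912 and 0.0858) or outside replicate 1 or 2 (0.079 and 0.131) was left out. Fibroblast and stromal markers were summed at 11.02 to 11.99 in spheres against 8.87 to 9.62 outside at 24 h, and at 11.53 to 11.55 against 8.58 to 9.69 at 48 h. Of 9 such markers 5 were higher and 1 lower at 24 h, and 6 higher and 1 lower at 48 h. Over all genes 15.8% were higher and 13.6% lower at 24 h, and 15.2% and 22.3% at 48 h. The collagen gene Col3a1 was higher (2.64 ± 0.31 and 3.28 ± 0.31) and Col1a1 lower (-0.60 ± 0.21 and -1.23 ± 0.21, limma adjusted p = 0.0452 and 6.19e-04), the 24 h call of Col1a1 ending with any one in-sphere replicate left out (0.0669, 0.132 and 0.0839) or without outside replicate 2 (0.145). The part of these markers in the class II results was not tested, and in bulk RNA fewer cells of a type and less RNA per cell cannot be told apart. The 3' minus 5' signal of the beta-actin control was 0.35 to 0.60 in spheres and 0.22 to 0.32 outside at 24 h, and 0.39 to 0.42 and 0.37 to 0.40 at 48 h. That of the GAPDH control was -0.12 to 0.43 in spheres and -0.04 to 0.17 outside at 24 h, with overlap, and 0.11 to 0.15 and 0.05 to 0.10 at 48 h.

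At 24 h the classical class II chains H2-Aa and H2-Eb1 were lower in spheres and the peptide-exchange subunit H2-DMa was higher. H2-Aa was 2.62-fold and H2-Eb1 3.17-fold lower, and H2-DMa was 2.17-fold higher. The other 7 genes did not pass the test. Limma called 3 of the 10 genes (1 higher, 2 lower) at a Benjamini-Hochberg adjusted p under 0.05, against 29.4% of all genes tested (15.8% higher, 13.6% lower). In-sphere and outside arrays did not overlap for 4 of the 10, those 3 and H2-Ab1, against 43.4% of all genes. The share of genes called was therefore close to the background, and the median difference of the 10 genes was -0.19 against -0.01 for all genes.

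At 48 h H2-Aa, H2-Eb1 and Cd74 were lower in spheres, and H2-DMa, H2-DMb1 and H2-DMb2 were higher. H2-Eb1 was 3.56-fold lower and H2-DMa 3.46-fold higher, the largest differences in each direction among the 10. Limma called 7 of the 10 genes (3 higher, 4 lower), against 37.5% of all genes (15.2% higher and 22.3% lower). The fourth lower gene was Ciita, which entered the test only through the group in which it was highest, so its call had to point this way. Without it 6 of 9 genes were called, 3 in each direction. Of these 6, H2-DMb2 may not be separate from H2-DMb1, and Cd74 passed with little margin (limma adjusted p = 0.0479), as described below. Groups did not overlap for the same 7, Ciita included, against 51.6% of all genes. The median difference of the 10 was -0.31, with -0.10 for all genes.

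**Figure D2:**
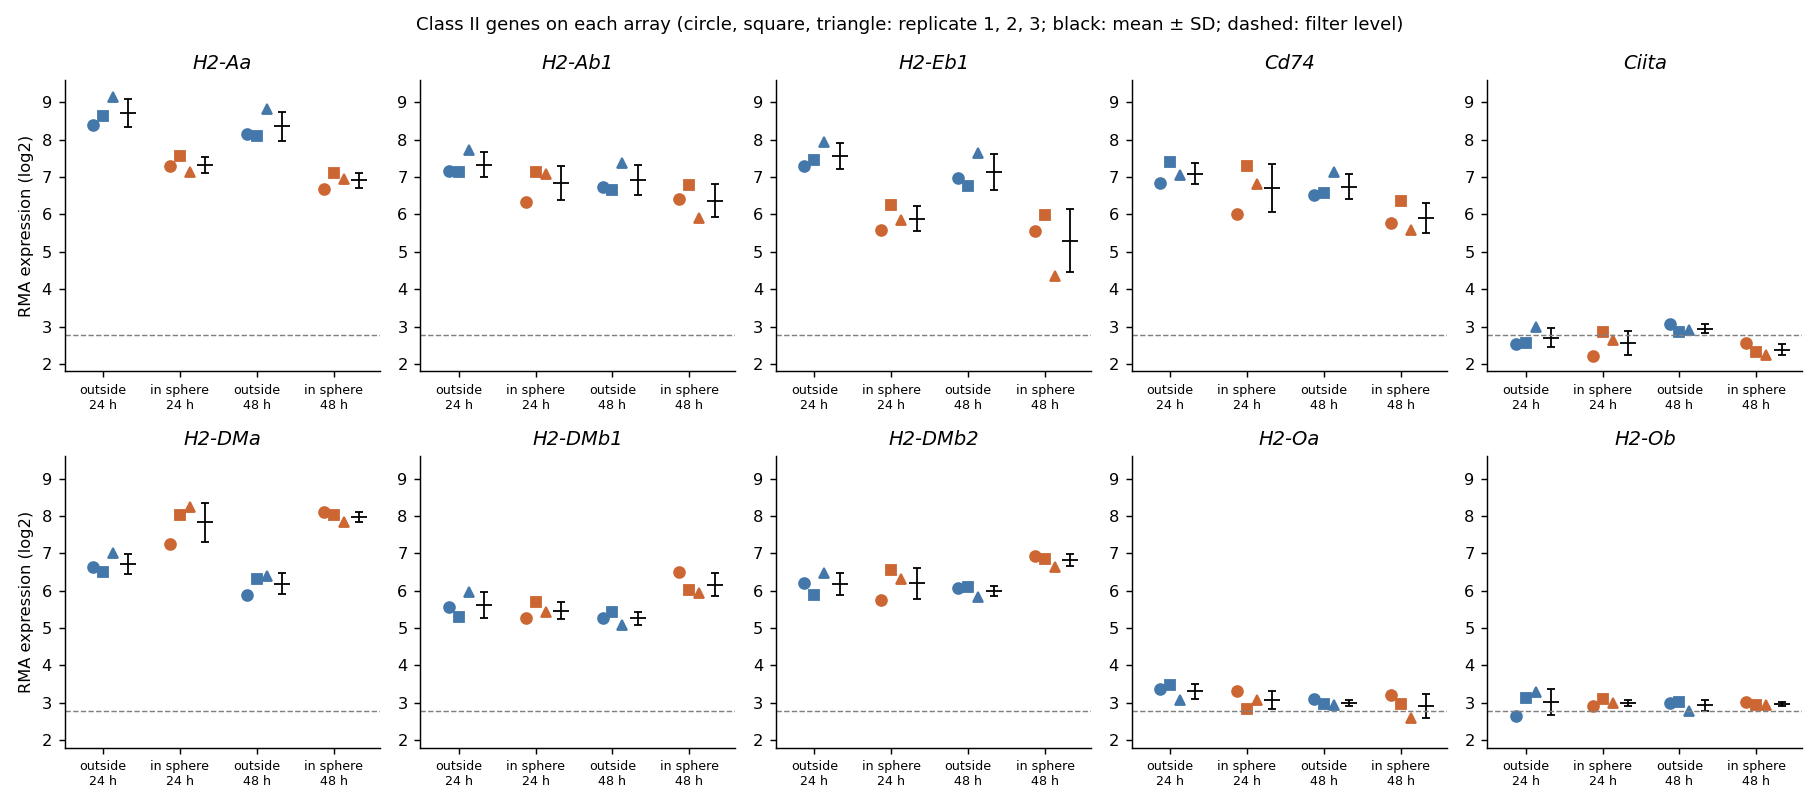
RMA expression (log2) of the 10 genes on each of the 12 arrays, outside in blue and in spheres in orange, with the mean ± SD of 3 arrays in black and the filter level of 2.77 dashed. H2-Aa and H2-Eb1 were lower and H2-DMa higher on every in-sphere array than on any outside array of that time, while Ciita, H2-Oa and H2-Ob lay near the filter level.

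H2-Aa encodes the alpha chain of the I-A molecule, the class II dimer of C57BL/6 mice. At 24 h its arrays read 7.30, 7.56 and 7.14 in spheres and 8.40, 8.63 and 9.14 outside, and at 48 h 6.69, 7.10 and 6.95 against 8.15, 8.10 and 8.81. Every in-sphere array was below every outside array at either time, and the groups ran in the order outside at 24 h (8.72 ± 0.377, mean ± SD, n = 3), outside at 48 h (8.35 ± 0.394), spheres at 24 h (7.33 ± 0.216) and spheres at 48 h (6.91 ± 0.206). The in-sphere difference was -1.39 ± 0.23 (SE) at 24 h and -1.44 ± 0.23 at 48 h, with limma adjusted p of 6.68e-04 and 3.74e-04. Neighbours in that order that differ only in time, outside at 24 h and 48 h, and spheres at 24 h and 48 h, did not pass the test (adjusted p = 0.596 and 0.536). The probe set used carries the suffix with which Affymetrix marks possible cross-hybridisation to other transcripts. The 2 probe sets of H2-Aa that were not used gave -1.54 and -0.91 at 24 h and -2.07 and -1.15 at 48 h. The first carries the suffix for sets shared by several transcripts, and the second the same suffix as the set used. Neither is therefore a check known to be specific to H2-Aa.

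H2-Ab1 encodes the beta chain that pairs with it. At 24 h it read 6.32, 7.13 and 7.07 in spheres and 7.15, 7.14 and 7.71 outside, so that the groups did not overlap but nearly met at 7.13 and 7.14. At 48 h it read 6.42, 6.78 and 5.90 against 6.73, 6.65 and 7.37, with overlap. The differences of -0.49 ± 0.28 and -0.55 ± 0.28 did not pass (limma adjusted p = 0.228 and 0.152). The other 2 probe sets also gave lower means in spheres, with -0.87 and -0.81 at 24 h and -0.50 and -0.58 at 48 h.

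H2-Eb1 encodes the beta chain of the I-E molecule. C57BL/6 mice are known to lack a functional alpha chain of I-E, so this transcript has no surface partner in the strain. It read 5.57, 6.24 and 5.85 in spheres and 7.28, 7.44 and 7.94 outside at 24 h, and 5.56, 5.99 and 4.35 against 6.98, 6.75 and 7.65 at 48 h. The groups did not overlap at either time, and the lowest value was that of the array unlike the rest. The in-sphere difference was -1.67 ± 0.37 at 24 h (limma adjusted p = 0.00502) and -1.83 ± 0.37 at 48 h (adjusted p = 0.00215), and -1.36 at 48 h without that array.

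Cd74, the invariant chain, passed the test at 48 h with little margin. It read 6.01, 7.29 and 6.82 in spheres against 6.84, 7.39 and 7.04 outside at 24 h, with overlap, and did not pass (-0.39 ± 0.30, limma adjusted p = 0.394). At 48 h it read 5.78, 6.36 and 5.57 against 6.52, 6.58 and 7.12, without overlap, and was called lower (-0.84 ± 0.30, adjusted p = 0.0479). Leaving out in-sphere replicate 1 or 3 ended that call (adjusted p = 0.112 and 0.156), as did leaving out any one of the outside arrays (0.0605, 0.0709 and 0.17) or dropping the filter (0.0606). Over all alternatives the adjusted p ran from 0.0195 to 0.17.

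Ciita, the coactivator of the class II promoters, was at the edge of detection. At 48 h it read 2.55, 2.33 and 2.25 in spheres and 3.07, 2.85 and 2.90 outside, and at 24 h 2.21, 2.85 and 2.63 against 2.53, 2.57 and 2.98. Signal above 2.77, the filter level, was seen on 3 of 3 arrays outside at 48 h, on 1 of each group at 24 h and on 0 in spheres at 48 h. It entered the test only through the outside arrays of 48 h, the group in which it was highest. The fitted difference at 48 h was -0.57 ± 0.17 (limma adjusted p = 0.0228), but in spheres only a bound was measured, and outside arrays lay above the filter level by 0.17 on average. It ended when in-sphere replicate 2 or 3 (adjusted p = 0.061 and 0.0693) or outside replicate 1 (0.0824) was left out, with adjusted p from 0.00475 to 0.0824 over all alternatives. The 2 other Ciita probe sets were above the level on 0 of 12 arrays, and the 24 h difference of -0.13 ± 0.17 was too near the background to be detected.

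H2-DMa, the alpha subunit of the peptide-exchange factor, was higher in spheres at both times, where H2-Aa was lower. It read 7.24, 8.02 and 8.23 in spheres against 6.64, 6.49 and 7.02 outside at 24 h, and 8.10, 8.02 and 7.83 against 5.88, 6.30 and 6.40 at 48 h. All 6 in-sphere arrays were above all 6 outside arrays. The difference was 1.12 ± 0.24 at 24 h (limma adjusted p = 0.00393) and 1.79 ± 0.24 at 48 h (adjusted p = 1.14e-04). A second, dim probe set with a mean of 3.01 over 12 arrays gave 0.62 and 0.50, which did not pass (adjusted p = 0.0762 and 0.126).

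The beta subunits H2-DMb1 and H2-DMb2 differed between compartments at 48 h. H2-DMb1 read 6.51, 6.02 and 5.93 in spheres and 5.26, 5.43 and 5.09 outside at 48 h, a difference of 0.89 ± 0.20 (limma adjusted p = 0.0041). At 24 h it read 5.26, 5.71 and 5.43 against 5.56, 5.30 and 5.97, with overlap and no call (-0.14 ± 0.20, adjusted p = 0.666). The lowest of the in-sphere arrays at 48 h, 5.93, was exceeded by 1 array of the other groups, at 5.97 outside at 24 h.

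H2-DMb2 read 6.94, 6.86 and 6.64 in spheres and 6.06, 6.09 and 5.84 outside at 48 h, a difference of 0.82 ± 0.20 (limma adjusted p = 0.00756), and differed by 0.02 ± 0.20 at 24 h (adjusted p = 0.957). Its probe set carries the suffix that Affymetrix gives to sets shared by several transcripts, as does that of H2-Ab1, and H2-DMb1 and H2-DMb2 are close paralogs, so its signal may not be that of H2-DMb2 alone. A probe set of H2-DMb2 without that suffix had a mean of 3.17 and differed by 0.03 at 24 h and 0.01 at 48 h (adjusted p = 0.961 at 48 h). The values of H2-DMb2 are therefore uncertain, and its call may not be separate from that of H2-DMb1.

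H2-Oa and H2-Ob, which encode the inhibitor of H2-DM known mainly from B cells, were dim in every group. H2-Oa averaged 3.07 ± 0.245 (SD, n = 3) in spheres and 3.31 ± 0.204 outside at 24 h, and 2.92 ± 0.313 and 3.00 ± 0.0858 at 48 h. H2-Ob averaged between 2.93 and 3.02 in all 4 groups. Neither gene was called at either time (limma adjusted p from 0.361 to 0.947), and array weights alone gave H2-Oa a call at 24 h (-0.43, adjusted p = 0.0208, with 0.0208 to 0.727 over all alternatives). At this signal, close to the filter level, a difference was hardly detectable.

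**Figure D3:**
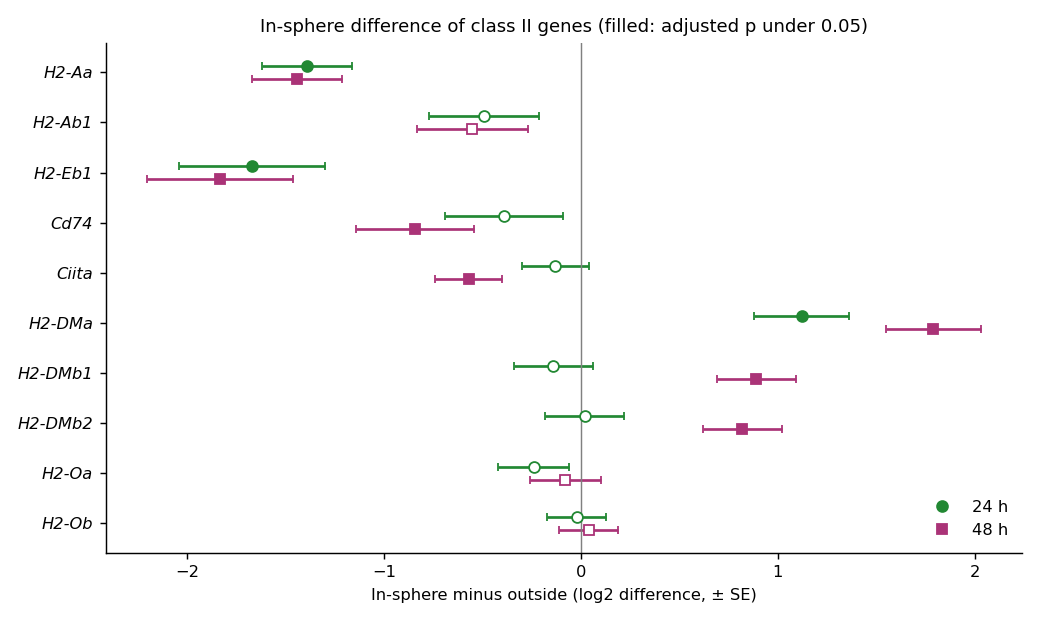
In-sphere minus outside log2 difference of each gene with its SE from the fit over all 12 arrays, circles for 24 h and squares for 48 h, filled where the adjusted p was under 0.05. H2-Aa and H2-Eb1 lie below 0 and H2-DMa above 0 at both times, and H2-DMb1 and H2-DMb2 lie near 0 at 24 h and above it at 48 h.

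Set against the outside array of the same replicate number, the in-sphere array was lower for H2-Aa and H2-Eb1 in 3 of 3 numbers at both times and higher for H2-DMa in 3 of 3. Any matching of arrays would give these signs, because the groups of these genes did not overlap. The signs therefore add nothing to the results above, and only the sizes are described here. H2-Aa differed by -1.10, -1.07 and -2.0 at 24 h and by -1.45, -1.0 and -1.86 at 48 h. H2-DMa differed by 0.60, 1.53 and 1.22 at 24 h and by 2.22, 1.72 and 1.43 at 48 h. The spread between numbers was largest for H2-Eb1 at 48 h, with -1.42, -0.76 and -3.31. H2-Ab1 differed by -0.01 in number 2 at 24 h and by 0.13 there at 48 h, against -1.47 in number 3 at 48 h. Outside spheres, number 3 had the highest H2-Aa, H2-Ab1 and H2-Eb1 at both times.

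**Figure D4:**
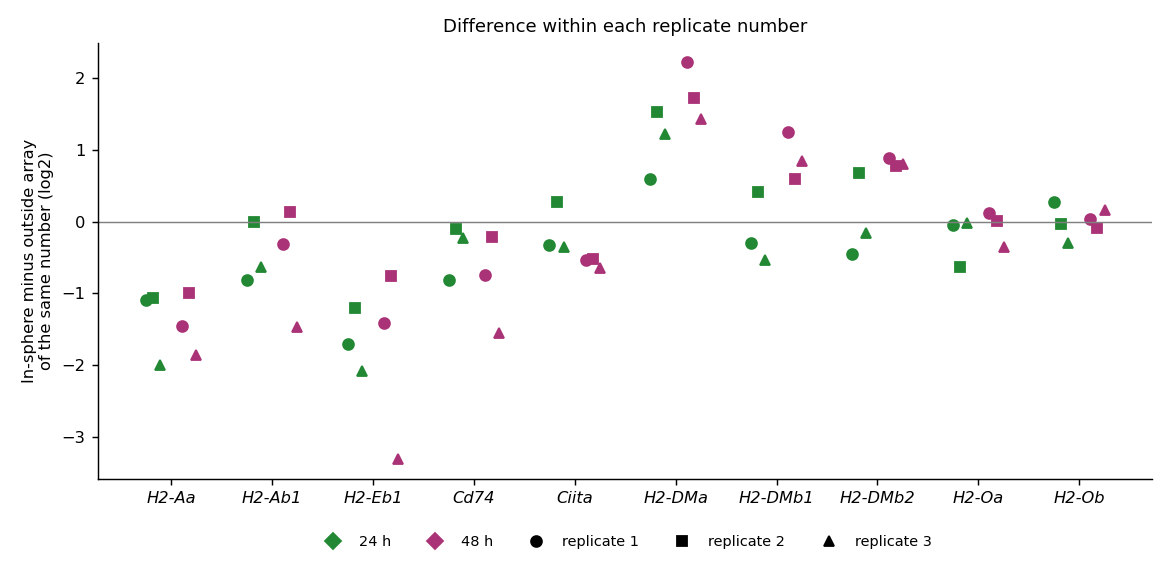
Log2 difference between the in-sphere and the outside array of the same replicate number for each gene, 24 h in green and 48 h in purple, with the shape giving the number. H2-DMa is above 0 and H2-Aa and H2-Eb1 below 0 in all 3 numbers at both times, and number 3 at 48 h gives the lowest H2-Eb1 value, -3.31. The groups of these genes did not overlap, so any matching of arrays would give these signs.

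Between 24 h and 48 h limma called 0 of the 10 genes in spheres, where 0% of all genes were called (10.7% at an unadjusted p under 0.05), and 0 of the 10 outside, where 0.336% were. In spheres 3 of the 10 had an unadjusted p under 0.05. These were H2-DMb1 (0.69 ± 0.20, adjusted p = 0.274), H2-DMb2 (0.61 ± 0.20, adjusted p = 0.338) and Cd74 (-0.80 ± 0.30, adjusted p = 0.391). Outside, 1 did, against 10.8% of all genes, H2-DMa at -0.52 ± 0.24 (adjusted p = 0.451). Arrays of the 2 times did not overlap in spheres for H2-Aa, H2-DMb1 and H2-DMb2, 3 of the 10 against 13.8% of all genes, and outside for H2-DMa, 1 of the 10 against 22.1%. These p come from the fit without the replicate number, although the numbers were taken as pairing the outside arrays. Outside, H2-Aa, H2-Ab1, H2-Eb1, H2-DMa and H2-Oa were lower at 48 h in 3 of 3 replicate numbers. None of the 10 was higher in 3 of 3, and these signs were not tested. Every alternative run for these comparisons, the fit with the number as a block among them, also called 0 of the 10.

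The change of the in-sphere difference from 24 h to 48 h was tested directly, and limma called 0 of the 10 genes and 0% of all genes (2 of the 10 at an unadjusted p under 0.05, against 12.3% of all genes). H2-DMb1 came closest, its difference being higher at 48 h by 1.04 ± 0.28 (adjusted p = 0.188). H2-DMb2 followed at 0.79 ± 0.29 (adjusted p = 0.302) and H2-DMa at 0.67 ± 0.34 (adjusted p = 0.448). H2-Aa (-0.04 ± 0.32), H2-Ab1 (-0.06 ± 0.40) and H2-Eb1 (-0.16 ± 0.52) had values near 0 with wide errors. More calls at 48 h than at 24 h thus do not show that the compartments differed more at the later time.

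Other genes of the pathway were read as lists, whose counts stand against 29.4% of all genes called at 24 h and 37.5% at 48 h. The factors that bind class II promoters are the RFX subunits, the NF-Y subunits and CREB1. Of 7 tested at 24 h, 1 was higher and 0 lower (median 0.24, against -0.01 for all genes), and at 48 h 1 was higher and 1 lower (median 0.25, against -0.10), fewer than the background share at either time. Rfx5, the RFX subunit that contacts the X box, read 7.0, 6.72 and 6.84 in spheres against 6.11, 6.19 and 6.23 outside at 24 h, and 7.05, 6.87 and 6.81 against 5.97, 5.92 and 6.02 at 48 h. It was higher by 0.67 ± 0.11 (limma adjusted p = 8.17e-04) and 0.94 ± 0.11 (adjusted p = 5.22e-05). Nfya, the DNA-binding NF-Y subunit at the Y box, was lower at 48 h (-1.22 ± 0.24, adjusted p = 0.00174) and did not pass at 24 h (-0.42 ± 0.24, adjusted p = 0.22).

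Of 8 tested genes of the interferon gamma pathway and myeloid factors that act on Ciita, 0 were higher and 1 lower at 24 h (median -0.11), and 1 higher and 2 lower at 48 h (median -0.21), where 3 of 8 equals the background share of 37.5%. The myeloid factor Spi1, known as PU.1, was lower at 48 h (-0.66 ± 0.15, limma adjusted p = 0.00419), as was the kinase Jak1 (-0.52 ± 0.13, adjusted p = 0.00682), whose dimmest probe set gave a larger difference of the same sign without a call (-1.09, adjusted p = 0.159). The receptor chain Ifngr1 was higher (0.41 ± 0.13, adjusted p = 0.0234), a call that ended when in-sphere replicate 2 or 3 (0.073 and 0.0652) or outside replicate 1 or 2 (0.0618 and 0.0774) was left out. Usf1 was lower at 24 h (-0.53 ± 0.17, adjusted p = 0.0342), which did not pass when in-sphere replicate 1 or 3 (0.111 and 0.105) or outside replicate 1 or 3 (0.0747 and 0.119) was left out, or with the mean of its probe sets (-0.17, 0.297). Irf1, a direct interferon gamma target, did not pass at 24 h (-0.55 ± 0.22, adjusted p = 0.0845) or 48 h (-0.10 ± 0.22, adjusted p = 0.764).

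Of 8 endosomal proteases and related genes 4 were lower at 24 h and 3 at 48 h, and 0 were higher (medians -0.33 and -0.34). Over all genes 13.6% were lower at 24 h and 22.3% at 48 h, and 3 of 8 at 48 h equals the 37.5% called in either direction. The cathepsins Ctsd (-0.70 ± 0.10, limma adjusted p = 4.05e-04) and Ctsz (-0.59 ± 0.13, adjusted p = 0.00398) were lower at 24 h, as was Ctsb (-0.37 ± 0.099, adjusted p = 0.0134), whose call ended without outside replicate 1 (0.0559). Ctsd (-0.86 ± 0.10), Ctsz (-0.74 ± 0.13) and Ctsb (-0.60 ± 0.099) were lower at 48 h. Lgmn, an asparaginyl endopeptidase, was lower at 24 h (-0.54 ± 0.17, adjusted p = 0.0305), which did not hold when in-sphere replicate 1 (0.114) or outside replicate 1 or 3 (0.0709 and 0.11) was left out. Ctss, the protease best known for the last cut of the invariant chain, did not pass (-0.28 ± 0.15 and -0.22 ± 0.15, adjusted p = 0.179 and 0.259). Ifi30, the thiol reductase GILT that opens disulfide bonds of antigens, did not pass either (-0.29 ± 0.16 and -0.43 ± 0.16, adjusted p = 0.202 and 0.0547).

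Among 6 genes of class II turnover and surface stability, 3 were lower at 24 h, and 3 lower and 1 higher at 48 h (medians -0.42 and -0.68), against 29.4% and 37.5% of all genes called in either direction. Marchf1, the ubiquitin ligase that sends class II from the surface to degradation, read 5.46, 5.93 and 6.25 in spheres against 6.75, 6.91 and 6.61 outside at 24 h, and 5.73, 5.85 and 5.27 against 6.75, 7.0 and 6.92 at 48 h. It was lower in spheres (-0.88 ± 0.20, limma adjusted p = 0.00568, and -1.27 ± 0.20, adjusted p = 3.80e-04), while its dimmest probe set gave -0.18 and 0.07 without a call (adjusted p = 0.356 and 0.736). Its relative Marchf8 (-0.93 ± 0.18 and -1.24 ± 0.18) and the tetraspanin Cd82 (-1.26 ± 0.12 and -1.24 ± 0.12) were lower at both times. Cd83, which is known to oppose Marchf1, read 10.43, 10.40 and 10.69 in spheres against 8.80, 8.74 and 9.18 outside at 48 h, and was higher by 1.60 ± 0.22 (adjusted p = 1.47e-04), with 0.25 ± 0.22 at 24 h (adjusted p = 0.455).

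Class I presentation, which serves CD8+ T cells, had 2 higher and 1 lower of 11 tested genes at 24 h (median -0.04) and 0 higher and 1 lower at 48 h (median 0.00). That was about the background share of 29.4% at 24 h and below that of 37.5% at 48 h. The class I heavy chain H2-D1 was lower (-0.55 ± 0.15 and -0.56 ± 0.15, limma adjusted p = 0.0173 and 0.0132). Its call ended at 24 h when in-sphere replicate 1 (0.0696) or outside replicate 1 or 3 (0.0555 and 0.0756) was left out, and at 48 h without in-sphere replicate 1 (0.0547). The chaperone Calr was higher at 24 h (0.59 ± 0.13, adjusted p = 0.00558), as was the chaperone Canx (0.32 ± 0.099, adjusted p = 0.0306), which passed in only 1 of the 6 fits without 1 array. The immunoproteasome genes Psmb8 and Psmb9, which lie between H2-DMb1 and H2-Ob on the chromosome in GRCm38.p6, did not pass at 24 h (-0.04 ± 0.16 and -0.28 ± 0.21) or 48 h (0.34 ± 0.16 and 0.31 ± 0.21, adjusted p = 0.112 and 0.281).

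Costimulatory and coinhibitory ligands, which accompany class II at the T cell contact, had 1 higher and 0 lower of 7 at 24 h (median 0.21) and 4 higher and 2 lower at 48 h (median 0.45), against 15.2% of all genes higher and 22.3% lower at 48 h. Cd40 was higher at both times (1.59 ± 0.27 and 1.16 ± 0.27, limma adjusted p = 9.84e-04 and 0.00519), although its dimmest probe set gave 0.53 without a call at 48 h (adjusted p = 0.114). Cd80 (1.19 ± 0.27, adjusted p = 0.00454) and Cd86 (1.13 ± 0.21, adjusted p = 0.00118) were higher at 48 h. The 2 lower genes, named after their values were seen, were the coinhibitory ligands Cd274 (-0.63 ± 0.16, adjusted p = 0.00983) and Pdcd1lg2 (fitted difference -0.42 ± 0.12, adjusted p = 0.0157). Pdcd1lg2 was above the filter level on 3 of 3 outside and 0 of 3 in-sphere arrays at 48 h and on 1 array of each group at 24 h. It was therefore tested only through the group in which it was highest, and outside arrays lay above the filter level by 0.16 on average. It did not pass with outside replicate 2 or 3 left out (0.0619 and 0.0518).

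**Figure D5:**
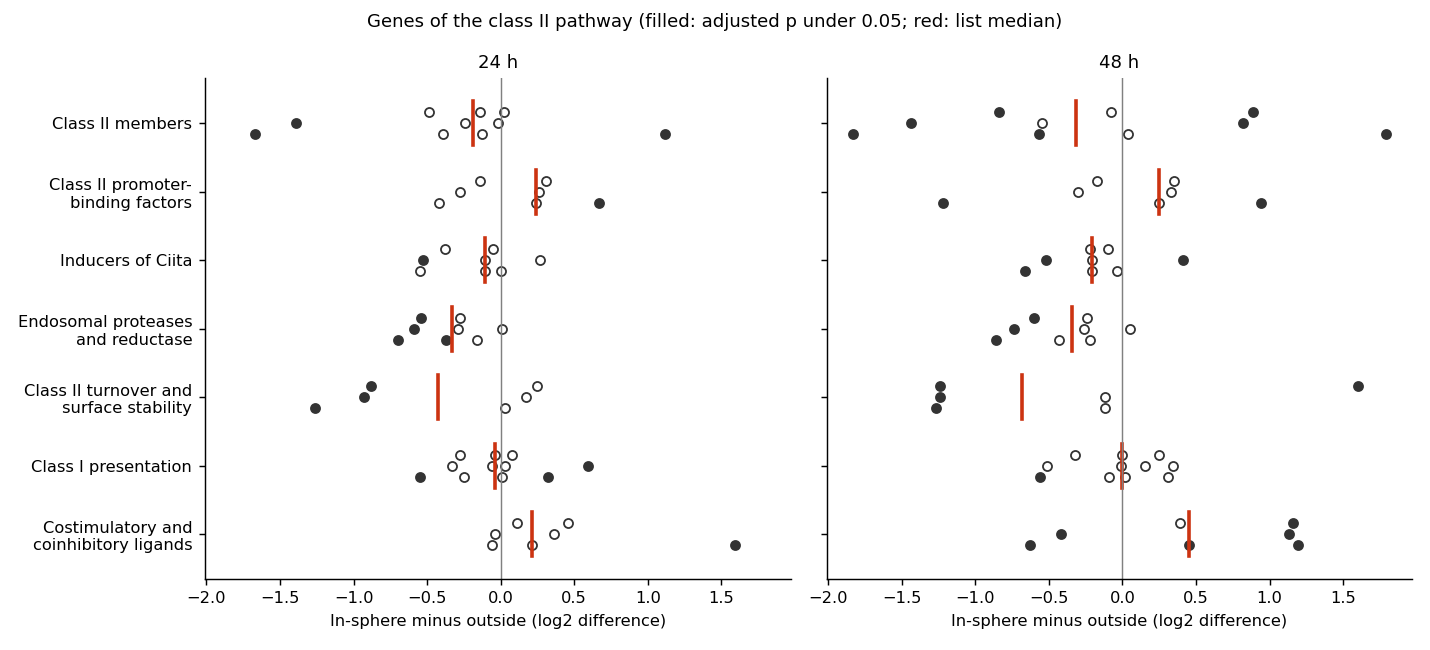
In-sphere minus outside log2 difference of each tested gene, one line per group of the class II pathway, at 24 h (left) and 48 h (right), filled where the adjusted p was under 0.05, with the median in red. The median lies below 0 for proteases and turnover genes at both times and above 0 for promoter-binding factors and for costimulatory and coinhibitory ligands.

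Other cells that make class II were looked for through their markers. The counts below stand against 15.8% of all genes higher and 13.6% lower at 24 h, and 15.2% and 22.3% at 48 h. Of 10 dendritic cell markers with a probe set, 8 were tested, and 1 was higher and 0 lower at 24 h and 1 higher and 1 lower at 48 h. Their summed level was 9.44 to 10.04 in spheres against 7.95 to 8.34 outside at 24 h, and 9.55 to 9.85 against 7.44 to 8.37 at 48 h. That sum was mostly the signal of the actin bundler Fscn1, which averaged 9.63 in spheres and 7.73 outside at 24 h. Every other marker averaged 4.42 or less in every group, so the sum says little of them. Fscn1 was higher at both times (1.90 ± 0.30 and 2.25 ± 0.30), and it was the only marker called higher. The lower marker at 48 h was the integrin Itgax, or CD11c (-1.03 ± 0.23, limma adjusted p = 0.00435), which did not pass at 24 h (0.13 ± 0.23). The defining markers Zbtb46 and Flt3 averaged between 2.72 and 3.1 in all groups, and Xcr1 was above the filter level on 0 of 12 arrays. Of 8 B cell markers with a probe set 5 were tested, with 1 higher and 1 lower at 24 h and 2 higher and 1 lower at 48 h. Their summed level was 7.64 to 7.79 in spheres and 7.29 to 7.92 outside at 24 h, and 7.54 to 7.63 and 7.31 to 7.62 at 48 h.

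Ms4a1, which encodes the B cell protein CD20, read 3.08, 5.36 and 5.33 outside at 24 h against 2.44, 3.22 and 2.86 in spheres (-1.75 ± 0.50, limma adjusted p = 0.0198). With in-sphere replicate 1 or outside replicate 2 or 3 left out it did not pass (0.0795, 0.0842 and 0.0874). The B cell factor Ebf1 was higher in spheres at 24 h (1.08 ± 0.33, adjusted p = 0.0281) and 48 h (1.64 ± 0.33, adjusted p = 0.00218), while its dimmest probe set gave 0.28 and -0.10 without a call, and the 24 h call ended when in-sphere replicate 1 (0.119) or outside replicate 1 (0.107) was left out. At 48 h Cd79b, a chain of the B cell receptor complex, was higher (0.93 ± 0.23, adjusted p = 0.00804) and the B cell lectin Cd22 lower (-1.77 ± 0.30, adjusted p = 7.12e-04). Pax5 and Blk exceeded the filter level on 0 of 3 arrays in either group at 24 h, and Cd79a averaged 2.69 in spheres and 3.01 outside. The part of B cell RNA in the class II values was not tested. Of 11 neuroblastoma and neural markers with a probe set 9 were tested. At each time 2 were higher, Gap43 and Ncam1, against 15.8% of all genes at 24 h and 15.2% at 48 h. The summed level of the 11 markers was 7.78 to 8.55 in spheres and 6.74 to 6.91 outside at 24 h, and 7.88 to 8.25 and 6.48 to 6.58 at 48 h. In spheres that sum was mostly the signal of Gap43 and Ncam1. They averaged 6.97 and 6.23 in spheres and 2.98 and 5.24 outside at 24 h. Every other marker of the list averaged 3.65 or less in every group, so the sum says little of them. Chga and Tubb3 were above the filter level on 0 of 12 arrays. Arrays of pure TT9423 cells were not analysed here, and the part of tumour RNA in the class II values was not tested.

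Likeness was looked for among tested genes, passing over the class II members and gene models without a proper name. The genes whose 12 values were most like the mean of H2-Aa, H2-Ab1, H2-Eb1 and Cd74 were Myd88, Fam241a, Rnf139, Krit1, Sgk3 and Scand1. Pearson's r ran from 0.941 to 0.954 over 12 arrays. The arrays fall into in-sphere and outside groups, which raises such an r for any gene that differs between them. For deviations from the group means r was 0.823 for Myd88, the adaptor of Toll-like and interleukin-1 receptors, and 0.744 to 0.797 for the other 5. The genes were picked on the same 12 values, which hold these deviations, so a high r of deviations was partly built in. It is not a separate sign of likeness. The in-sphere difference of Myd88 was -0.67 ± 0.12 at 24 h and -0.82 ± 0.12 at 48 h, a direction that its choice by likeness to chains lower in spheres had fixed.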

How the data were processed

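Gene expression of macrophages was measured on 12 Affymetrix mouse arrays, 4 groups of 3. The authors deposited log2 values per probe set, which the submitters' processing notes credit to RMA and Affymetrix Expression Console 1.1. RMA quantile-normalises arrays together, which compresses dim differences and removes any difference in total RNA. The log base of 2 was inferred from how far the values reach. Precision is limited by the number of arrays.

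Symbols came from the platform annotation (28898 of 45141 probe sets with 1 symbol, 551 with several, 15692 with none). A gene was tested if its probe set read above 2.77 (percentile 40 of the whole table) on 3 or more arrays. One group-means model over all arrays was fitted in limma 3.58.1 (R 4.3.3; lmFit, contrasts.fit and eBayes, 8 residual and 4.09 prior degrees of freedom), with Benjamini-Hochberg adjustment over 12488 genes. The fit was tested on simulated data. Members, gene lists and the naming rule (all 10 members, up to 3 called genes per list, the 6 most alike genes with a proper name) were chosen with earlier results of these data known. No p was adjusted over the list alone.

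The replicate numbers come from the titles, and the series' design text calls each replicate an independent experiment. Correlations between deviations of same-numbered arrays were 0.471, 0.473 and 0.419 between outside arrays of 24 h and 48 h, and from 0.0215 to 0.12 between in-sphere and outside arrays of one time, so the numbers were taken as pairing the outside arrays, and a fit with the number as a block was an alternative. Other alternatives were the filter, array weights, the variance prior, the samples fitted, array centring, the probe set per gene and leaving out each array.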

Additional observations from a re-analysis of the deposited data

How the results depend on the processing

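With the replicate block limma called 3 of the 10 genes at 24 h and 7 at 48 h, the counts without it, and the block changed no call of the 10. The count at 48 h fell to 3 with the probe set of lowest mean per gene, where 9 genes passed the filter. It was 6 or 7 under the other alternatives over 12 arrays (the stricter filter left Ciita and H2-Ob untested), and ran from 5 (without in-sphere replicate 3, or without outside replicate 1) to 6 in fits without 1 array. At 24 h it ran from 2 to 4 over all alternatives and was 3 in every fit without 1 array. For the time comparisons and the change of the difference it was 0 in every alternative. Calls of H2-Aa and H2-Eb1 at both times, and of H2-DMb1 at 48 h, held under every alternative. H2-Eb1 and H2-DMb1 have a single probe set each, so alternatives on the choice of probe set could not change their differences. Of 50 differences of single genes none that was called changed sign. With array weights the uncalled 24 h differences became 0.04 for H2-DMb1, 0.14 for H2-Ob, 0.10 for Cd74 and 0.12 for Ciita, that of H2-Oa at 48 h became 0.03, its change in spheres 0.10 and the change of the difference of H2-Ob -0.06. With the probe set of lowest mean the changes in spheres were -0.14 for H2-DMa and 0.05 for H2-Ob, that outside was 0.08 for H2-DMb2, and the changes of the difference were 0.23 for H2-Ab1, -0.12 for H2-DMa and -0.02 for H2-DMb2. With the mean of probe sets H2-Ob in spheres gave 0.01 and H2-Ab1 0.18 for the change of the difference. Fits without 1 array turned the sign of uncalled values 32 times, over ranges of -0.28 to 0.04 for Ciita, -0.30 to 0.04 for H2-DMb1, -0.15 to 0.25 for H2-DMb2 and -0.21 to 0.11 for H2-Ob at 24 h, and -0.22 to 0.09 for H2-Oa and -0.04 to 0.09 for H2-Ob at 48 h. For changes with time they were -0.14 to 0.35 for H2-DMa, -0.30 to 0.01 for H2-Oa and -0.07 to 0.02 for H2-Ob in spheres and -0.28 to 0.04 for H2-Ob outside. For the change of the difference they were -0.25 to 0.18 for H2-Aa, -0.32 to 0.17 for H2-Ab1, -0.51 to 0.31 for H2-Eb1 and -0.08 to 0.25 for H2-Ob. The cause was not tested. Signal near the filter level limits Ciita, H2-Oa and H2-Ob.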
